A study of Mus musculus with 4 samples.

Results

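The genes described here encode the ligands, receptors, Smad proteins, extracellular antagonists and first target genes of the TGF-beta and BMP pathways, measured in brown preadipocytes with and without the histone methyltransferase G9a. A list of 48 genes was matched to the probe sets that carry exactly 1 gene symbol in the platform annotation. In all, 46 of these genes had at least 1 such probe set, among 18193 genes on the array, while Bmp3 and Gdf6 had none. Together they held 98 probe sets. A total of 72 probe sets, from 38 genes, had a mean level over the 4 arrays high enough to be tested, a filter set at the median of all probe sets. The other 8 genes (Bmp2, Bmp4, Bmp6, Bmp7, Gdf5, Gdf10, Smad9 and Nog) lay below it on every probe set.

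The comparison asks how gene expression differs once G9a is lost from immortalized precursors of brown adipocytes. All 4 samples carried floxed G9a alleles (G9af/f) on a mixed C57/BL6-129 strain background. The 2 vector samples, labelled wild type, were the controls, and the 2 Cre samples were labelled G9a knock out. In each group the samples were numbered 1 and 2. The labels give neither the way the cells were immortalized nor the way Cre was delivered, and they do not say whether samples of a group were separate cultures. Xist, the X-inactivation RNA, read 11634 and 51.4 on the vector arrays 1 and 2 and 10031 and 68.1 on the Cre arrays, so the samples of a group were not repeats of the same RNA. The p-values cover these 4 samples alone. By genotype alone they use the spread between samples of a group. With the replicate number as a block, they use what remains after the difference between the numbers is removed. In both models limma also draws on the spread of all tested probe sets.

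TGF-beta family ligands are secreted dimers that bind pairs of type I and type II receptor kinases. The receptors phosphorylate Smad2 and Smad3 for TGF-beta and activin, or Smad1, Smad5 and Smad9 for BMPs, and these enter the nucleus with Smad4. Smad6 and Smad7 block the receptors, and secreted antagonists such as Gremlin 1, Noggin and Follistatin trap ligands outside the cell. In fat tissue, TGF-beta restrains the maturation of preadipocytes, whereas several BMPs commit cells to the adipocyte lineage and BMP7 is known for its part in brown fat.

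Signals are array intensities after quantile normalization, and differences are Cre minus vector on the log2(signal + 16) scale, on which folds of dim genes come out too small. Ehmt2, the gene of G9a, read 2722 and 2646 on the vector arrays and 949 and 941 on the Cre arrays, a log2 difference of -1.49 ± 0.20 (SE, n = 2 against 2). Which exons Cre removes is not named in the labels, so a probe outside them would check nothing. For 61.6% of all tested genes the replicate numbers differed more than the genotypes, and 2 limma models are given, 1 by genotype alone and 1 with the replicate number as a block. Ehmt2 itself was not called by genotype alone (limma adjusted p = 0.227) and was called with the block (limma adjusted p = 0.000281). A dimmer Ehmt2 probe set, at 35.5 and 77.2 on the Cre arrays, differed by -1.39 (limma adjusted p = 0.779, and 0.017 with the block). A missing call by genotype alone is therefore no evidence that a gene did not differ. Medians of the deposited signals lay between 50.6 and 78. Of the preadipocyte markers, 9 of 11 were tested, 5 positive and 4 negative, and 0 were called in either model (limma; 1 at an unadjusted p under 0.05 by genotype alone); Zfp423 and Myf5 were below the level filter. Their summed signal ran from 17414 to 18845 on the vector arrays and was 13427 and 17451 on the Cre arrays. Dlk1 was lower mainly in number 1 (-1.72, and -0.11 in number 2), Pdgfra (-1.25 and -0.41), Cd34 (-0.67 and -0.21) and Cebpb (-0.498 and -0.397) were lower in both, and Prdm16 was higher (1.11 and 0.67). Itgb1, Ebf2, Thy1 and Pparg were the other positive markers, and the median of the tested markers was 0.0224. The part of these markers in the pathway genes' differences was not tested. None of 8 endothelial markers and 1 of 7 mature brown adipocyte markers (Dio2) reached that level. The endothelial markers summed to 176.8 and 116.2 on the vector arrays and 300.7 and 222 on the Cre arrays. The mature brown adipocyte markers summed to 174.6 and 153.4 on the vector arrays and 268.8 and 197.2 on the Cre arrays. The part of these dim markers in the pathway genes' differences was not tested. Some muscle markers were higher on the Cre arrays, and their values stand beside the target genes. In RNA of whole cultures, fewer cells of a type and less RNA per cell cannot be told apart.

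By genotype alone, 0 of the 38 tested genes passed an adjusted p of 0.05 in limma, as did 0% of the 11079 genes tested on the array. At an unadjusted p under 0.05 there were 4 (10.5%), Tgfb2, Tgfbr3, Grem1 and Fst, against 5.07% of all genes. With the replicate block, 1 gene was called higher (Tgfb2) and 3 were called lower (Inhbb, Grem1 and Fst). The 3 lower genes were 7.89% of the 38, against 0.984% of all genes, and the 1 higher gene was 2.63%, against 3.25% of all genes, a share near the background. Either way, 4.23% of all genes were called. The same 4 were the genes at least 1.5-fold apart in 1 direction within both replicate numbers, where 3.8% of all genes were higher and 1.22% lower. These calls ended without the level filter and without the intensity trend of the model, where 0 of the genes were called with the block (limma; 13 and 10 at an unadjusted p under 0.05). With the filter and the trend on, 13 of the 38 had an unadjusted p under 0.05 with the block, as did 2036 of all 11079 genes (limma). The shares over all genes in those other settings are not given.

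The sequences upstream of 3 of the 4 called genes are shown, since their transcripts differed with the block; Fst is named only. They are the 250 bases before the start in RefSeq (GRCm38.p6), read 5′ to 3′ on the gene's strand, with the core of the Smad-binding element (GTCT, or AGAC on the other strand) in capitals.
Grem1, chr2:113758649-113758898, minus strand: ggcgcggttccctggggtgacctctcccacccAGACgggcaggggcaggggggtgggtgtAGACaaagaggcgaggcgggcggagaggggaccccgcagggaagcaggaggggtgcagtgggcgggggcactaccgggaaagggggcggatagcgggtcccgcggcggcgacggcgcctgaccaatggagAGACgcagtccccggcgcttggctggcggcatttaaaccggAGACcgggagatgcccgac
Inhbb, chr1:119422249-119422498, minus strand: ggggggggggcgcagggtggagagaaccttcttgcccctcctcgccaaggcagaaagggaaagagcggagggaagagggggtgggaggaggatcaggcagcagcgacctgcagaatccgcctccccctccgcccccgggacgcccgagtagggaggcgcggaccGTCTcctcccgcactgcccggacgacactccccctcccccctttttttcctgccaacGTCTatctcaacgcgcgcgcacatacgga
Tgfb2, chr1:186705990-186706239, minus strand: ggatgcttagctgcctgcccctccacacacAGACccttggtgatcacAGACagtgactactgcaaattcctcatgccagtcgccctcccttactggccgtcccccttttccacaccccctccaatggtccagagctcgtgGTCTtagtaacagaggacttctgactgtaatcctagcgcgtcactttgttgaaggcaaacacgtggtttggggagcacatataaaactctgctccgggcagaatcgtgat
The Tgfb2 window lies 3708 bases inside the outermost start that RefSeq lists for the gene. The core occurred 4 times in the Grem1 window, 2 times in Inhbb and 3 times in Tgfb2. It is short and common: 82.9% of 32851 promoter windows of this length held it, as did 27 of the 33 genes of the list with an entry (81.8%). The GC box (GGGCGG, either strand) occurred 3 times upstream of Grem1, 1 time upstream of Inhbb and 0 times upstream of Tgfb2. It was present in 26 of the 33 windows of the list (78.8%) and in 32.7% of all windows. The list counts 1 window per gene, whereas all windows take in every promoter entry. The shares therefore come from unlike sets, and the gap between them was not tested. A TATA element (TATAAA, either strand) was found only in the Tgfb2 window among these 3, and 12.4% of all windows held one. These matches describe the letters only.

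The antagonists held the 2 genes whose groups stood furthest apart relative to their spread. Grem1 encodes Gremlin 1, which binds and traps BMPs. Its signal was 3320 and 3555 on the vector arrays 1 and 2 and 1853 and 1588 on the Cre arrays 1 and 2. Both Cre arrays lay below both vector arrays, and the replicate numbers differed by 0.0981 (vector) and -0.22 (Cre) on the log2 scale. Grem1 was 1.99-fold lower by genotype alone (limma adjusted p = 0.424), or -0.9953 ± 0.19 in log2 units (SE, n = 2 against 2), with a 95% interval from -1.47 to -0.52. With the block it fell (limma adjusted p = 0.00287), with differences of -0.84 and -1.15 within numbers 1 and 2.

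Fst encodes Follistatin, which neutralizes activins and, less tightly, some BMPs. It read 284 and 311 on the vector arrays and 136 and 155 on the Cre arrays. The groups did not overlap, and the difference was almost equal in the pairs, -0.98 within number 1 and -0.94 within number 2. Fst was 1.94-fold lower (log2 difference -0.96 ± 0.24; 95% interval -1.55 to -0.37; limma adjusted p = 0.698), and it fell with the block (limma adjusted p = 0.033). A dimmer Fst probe set pointed the same way with less weight, at -0.90 and -0.28 within the numbers, and was not called with the block (limma adjusted p = 0.285).

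The other antagonists were not called in either model. Fstl3, a Follistatin relative that also binds activins, was lower in both pairs, by -0.81 and -0.42, but its groups overlapped. Fstl1, a secreted glycoprotein of the same family, read between 11377 and 13713 on all 4 arrays and differed by 0.06 ± 0.12 (95% interval -0.25 to 0.36). Chrd, which encodes the BMP trap Chordin, and Bambi, a decoy receptor, were higher within number 1 (0.64 and 0.69) and lower within number 2 (-0.24 and -0.15). Nog, the gene of Noggin, read at most 4.8 on every array.

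**Figure D1:**
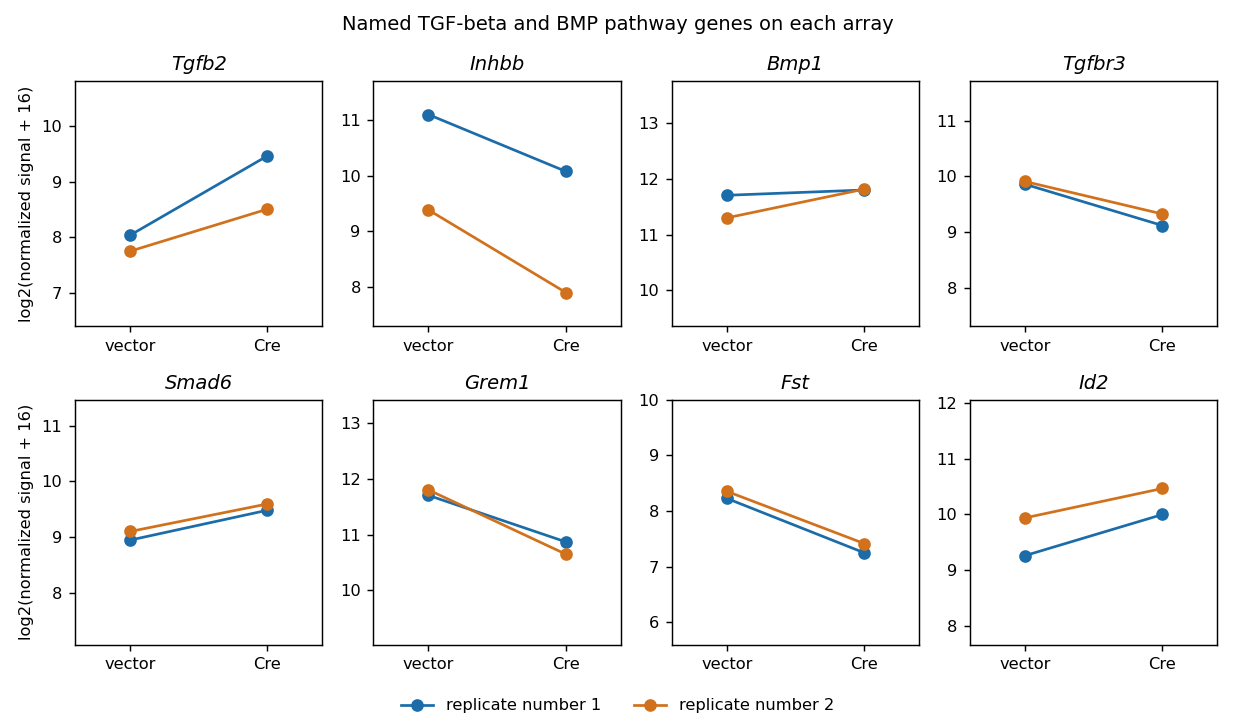
Level of each named gene on every array, as log2(normalized signal + 16) on the vertical axis, for vector and Cre samples; each panel spans the same number of log2 units, and lines join arrays of the same replicate number. Fst is lower by nearly the same amount in both numbers and Grem1 by -0.84 and -1.15, whereas the Inhbb lines run parallel but far apart, so its groups overlap.

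Among the ligands, 5 of 11 genes on the array were tested. Tgfb2 encodes TGF-beta 2, a ligand that needs the co-receptor betaglycan for efficient binding. It read 246.5 and 199 on the vector arrays and 689 and 347 on the Cre arrays. Both Cre arrays were above both vector arrays, and Cre 1 stood highest. Tgfb2 was 2.13-fold higher (log2 difference 1.09 ± 0.37; 95% interval 0.20 to 1.98; limma adjusted p = 0.999), and it rose with the block (limma adjusted p = 0.0202), by 1.43 and 0.76 within numbers 1 and 2. Without Cre 1 the difference by genotype alone was 0.61. The 3 probe sets of Tgfb2 above the filter level in both groups were higher by 0.75 to 1.09, without overlap of the groups, and 1 of them was called with the block. The remaining tested one, at 66.4 and 34.5 on the vector arrays, passed the filter through its Cre arrays only, so its value is no support.

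Inhbb encodes the beta B subunit of inhibins and activins. It read 2177 and 653 on the vector arrays and 1065 and 223 on the Cre arrays. The groups overlapped, since vector 2 lay below Cre 1, yet the Cre array was lower within each number, by -1.02 and -1.48. The log2 difference was -1.25 ± 0.82 by genotype alone (2.38-fold lower; 95% interval -3.26 to 0.76; limma adjusted p = 0.999), and Inhbb fell with the block (limma adjusted p = 0.00383). Leaving out 1 array moved the difference between -2.34 without Cre 1 and -0.16 without Cre 2; it was -2.11 without vector 2 and -0.396 without vector 1. A dimmer Inhbb probe set differed by -0.36 and -0.78 within the numbers and was not called (limma adjusted p = 0.217 with the block).

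The remaining tested ligands were not called. Tgfb1, the most widely expressed TGF-beta gene, read 1875 and 1882 on the vector arrays and 2611 and 2181 on the Cre arrays, without overlap, and differed by 0.34 ± 0.20 (95% interval -0.15 to 0.84). Tgfb3 was higher only within number 1 (0.70, against 0.01 within number 2). Inhba, which encodes the beta A activin subunit, differed by -0.23 ± 0.41, with -0.25 and -0.20 in the pairs, and its groups overlapped.

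The Bmp and Gdf ligand genes of the list that were on the array all lay below the level filter. Bmp2, Gdf5 and Gdf10 read 11.9 or less on every array, Bmp4 between 23.5 and 51.7, and Bmp6 between 19.2 and 61.7. Bmp7, singled out after its values were seen, read 16.4 and 15.1 on the vector arrays and 210 and 58.5 on the Cre arrays with its brightest probe set. Both Cre arrays were higher, by 2.80 and 1.26 on the log2 scale, while its 2 other probe sets read at most 11.5 and differed by -0.0997 and 0.0023. Without the level filter it joined Tgfb2 as at least 1.5-fold higher in both numbers, and it was not called with the block.

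Latent TGF-beta binding proteins hold TGF-beta in the matrix, and Bmp1 encodes a protease that cuts procollagens, Chordin and latent complexes. All 5 genes of this group were tested and 0 were called in either model (limma; 0 at an unadjusted p under 0.05 by genotype alone). Bmp1 had the smallest p, with 3327 and 2507 on the vector arrays and 3555 and 3592 on the Cre arrays. The groups did not overlap, and Cre 1 exceeded vector 1 only slightly. Its limma adjusted p was 0.999, and 0.298 with the block, for 0.31 ± 0.20 in log2 units (95% interval -0.19 to 0.80). Without vector 2 the difference was 0.10, and without vector 1 it was 0.51. A further probe set of Bmp1 gave 0.43 and 0.32 within the numbers. Ltbp2 and Ltbp4 ran in opposite directions in the pairs, at 0.45 and -0.36 for Ltbp2 and 0.25 and -0.93 for Ltbp4. Ltbp1 and Ltbp3 differed by -0.22 ± 0.20 and -0.03 ± 0.19.

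All 11 receptor genes were tested, and 0 were called in either model (limma; 1, Tgfbr3, at an unadjusted p under 0.05 by genotype alone). Tgfbr3 encodes betaglycan, the co-receptor that presents TGF-beta 2 to the signalling receptors. It read 912 and 944 on the vector arrays and 539 and 625 on the Cre arrays. The groups did not overlap, and both pairs were lower, by -0.74 and -0.58, the latter just short of 1.5-fold. The log2 difference was -0.66 ± 0.23 (1.58-fold lower; 95% interval -1.23 to -0.09; limma adjusted p = 0.999, and 0.0668 with the block). With the block it was called under the deposited scaling (limma adjusted p = 0.0349) and under median centring (0.0363).

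The kinase receptors showed small differences. Tgfbr2, the type II receptor of TGF-beta, differed by -0.05 ± 0.34, with -0.08 and -0.03 in the pairs. Its type I partner Tgfbr1 was lower within number 1 (-0.33) and higher within number 2 (0.45). The activin receptor genes Acvr1b and Acvr2a differed by 0.07 ± 0.26 and 0.04 ± 0.26, and Acvr2b by 0.43 ± 0.43. Acvr1, a type I receptor for BMPs and activins, was higher in both pairs, by 0.30 and 0.19, without overlap. Eng, the gene of the co-receptor Endoglin, was highest among the receptors at 0.44 ± 0.31, while a dimmer Eng probe set gave -0.03. For Bmpr1a, a type I BMP receptor, all 5 tested probe sets were negative, from -0.0828 for the brightest to -0.70. Bmpr1b and Bmpr2 differed by -0.14 ± 0.33 and 0.09 ± 0.25. The signs of Tgfbr1, Acvr1b, Acvr2a and Bmpr2, like that of Ltbp2, turned negative with median centring.

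Of the 8 Smad genes, 7 were tested and 0 were called in either model (limma; 0 at an unadjusted p under 0.05 by genotype alone). The inhibitory Smads were higher on both Cre arrays than on both vector arrays. Smad6, which mainly restrains BMP signals and is itself induced by them, read 476 and 532 on the vector arrays and 698 and 756 on the Cre arrays. The pairs gave 0.54 and 0.50, and the log2 difference was 0.52 ± 0.23 (95% interval -0.05 to 1.09; limma adjusted p = 0.999, and 0.159 with the block). Smad7, the general feedback inhibitor, read 870 and 970 on the vector arrays and 1112 and 1319 on the Cre arrays, again without overlap (0.39 ± 0.23; 95% interval -0.18 to 0.96). A dimmer Smad7 probe set was higher by 0.71 and 1.26 within the numbers (limma adjusted p = 0.0655 with the block).

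The signal-carrying Smads moved less. Smad2 and Smad3, which carry TGF-beta and activin signals, differed by -0.19 ± 0.23 and 0.22 ± 0.35, and the shared partner Smad4 by 0.17 ± 0.23 with 3 probe sets between 0.12 and 0.20. The BMP Smads differed by -0.23 ± 0.35 (Smad1) and -0.0566 ± 0.23 (Smad5). The dimmest of the 3 Smad1 probe sets stood apart, at -0.54 and -1.62 within the numbers, and was not called (limma adjusted p = 0.0855 with the block). Smad9 read between 7.8 and 47.8 and was not tested.

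**Figure D2:**
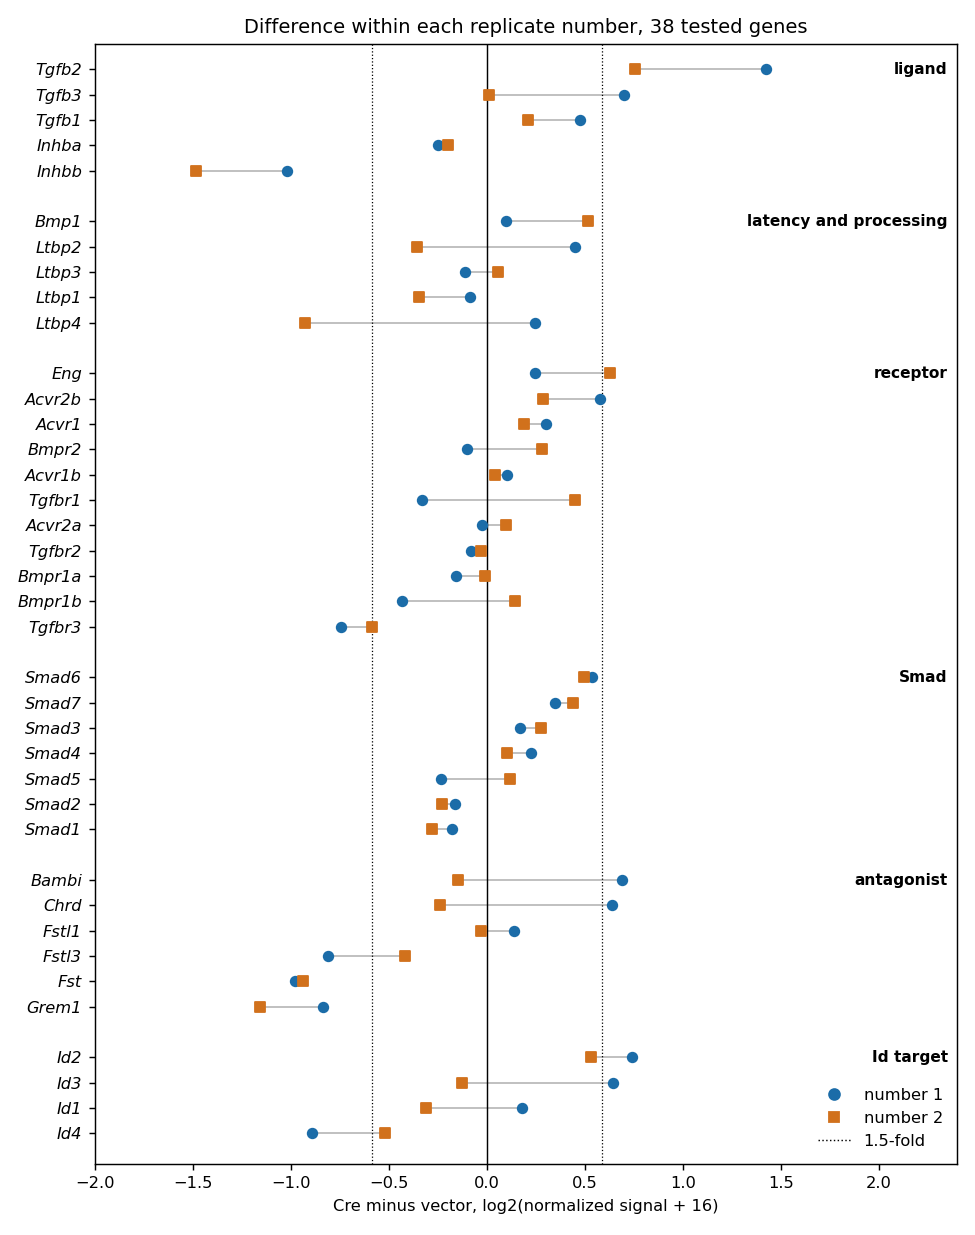
Difference of Cre minus vector within replicate number 1 (circles) and number 2 (squares) for the brightest probe set of each of the 38 tested genes, grouped by role; the horizontal axis is on the log2(normalized signal + 16) scale, and dotted lines mark 1.5-fold. Only Tgfb2, Inhbb, Fst and Grem1 have both points beyond a dotted line on the same side, and the receptor means run from -0.66 to 0.44.

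The Id genes encode inhibitors of helix-loop-helix transcription factors and are classic direct targets of BMP-activated Smads. They did not move together, and 0 of 4 were called in either model (limma; 0 at an unadjusted p under 0.05 by genotype alone). Id2 read 596 and 962 on the vector arrays and 1004 and 1395 on the Cre arrays. The groups did not overlap, by a small margin, and the pairs gave 0.74 and 0.53. Its log2 difference was 0.63 ± 0.32 (95% interval -0.15 to 1.42; limma adjusted p = 0.999, and 0.0693 with the block). Leaving out 1 array gave 0.29 without vector 1, 0.3996 without Cre 2 and 0.97 without vector 2. The 2 dimmer Id2 probe sets, whose groups overlapped, gave 0.63 and 0.11, and 0.51 and -0.03, within the numbers.

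Id4 was lower in both pairs, by -0.89 and -0.52, with 218 and 514 on the vector arrays and 110 and 355 on the Cre arrays. Its groups overlapped, and all 3 of its probe sets were negative, from -0.70 to -0.55. Id1 and Id3 ran in opposite directions in the pairs. Id1 gave 0.18 and -0.31, and Id3 gave 0.65 and -0.13.

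Over all 38 tested genes the differences were balanced, with 21 positive and 17 negative. Their median was 0.05, against 0.0073 over all tested genes, and it was 0.0989 within number 1 and 0.0028 within number 2. With median centring 42.1% of the genes were positive in place of 55.3%; that scaling moved the median of all genes to -0.0936. The sign was the same in both replicate numbers for 25 genes (13 positive and 12 negative) and opposite for 13, or 34.2%, against 36.9% of all genes. By role, opposite signs occurred in 0 of 5 ligands, 3 of 5 latency and processing genes, 4 of 11 receptors, 1 of 7 Smads, 3 of 6 antagonists and 2 of 4 Id genes.

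Replicate number parted many of these genes more than genotype did. The mean difference between the numbers exceeded the mean difference between the genotypes in size for 25 of the 38 genes (65.8%), against 61.6% of all tested genes. The median size was 0.38 between numbers and 0.24 between genotypes. Inhbb was lower in number 2 by -1.71 on the vector arrays and -2.18 on the Cre arrays. Ltbp2 (-1.14 and -1.95) and Ltbp4 (-0.92 and -2.10) were also lower in number 2.

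Id4 (1.18 and 1.56), Fstl3 (0.96 and 1.35) and Id1 (1.16 and 0.67) were higher in number 2 on the vector and Cre arrays. For Grem1 and Fst the numbers differed by at most -0.22 and 0.17, on the Cre arrays. Across the 38 genes, the differences between numbers correlated at 0.827 between the vector and the Cre arrays. That value is a description over genes that share the same 4 arrays.

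**Figure D3:**
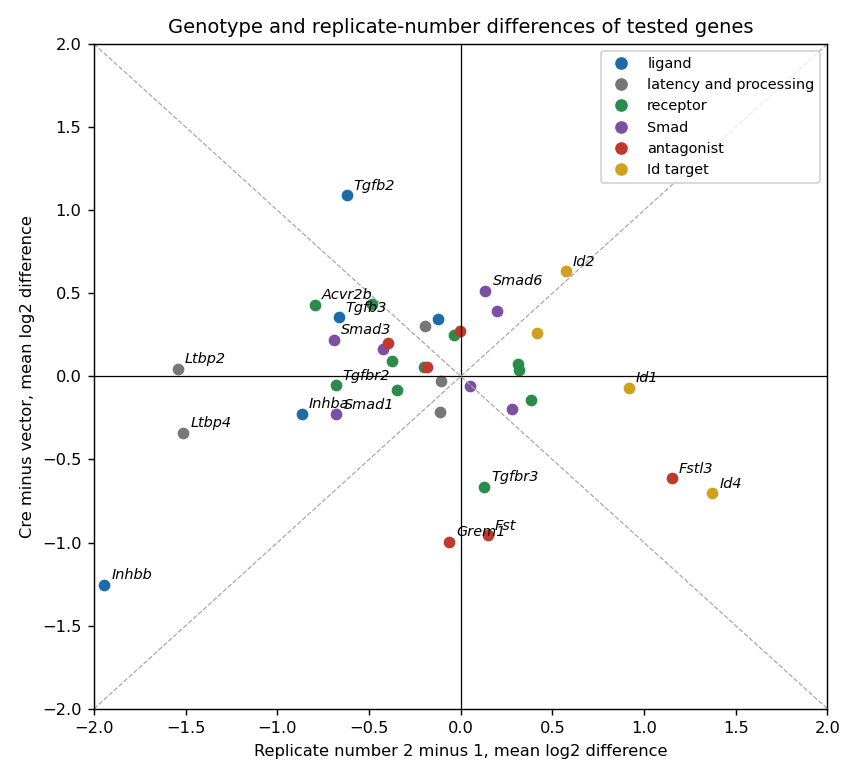
Mean difference between replicate numbers (2 minus 1, horizontal axis) against mean difference between genotypes (Cre minus vector, vertical axis) for the 38 tested genes, both on the log2 scale and coloured by role; dashed diagonals mark equal size. Grem1, Fst and Tgfbr3 lie close to the vertical axis, while Inhbb, Ltbp2, Ltbp4, Id4 and Fstl3 lie far to the sides.

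Probe sets of the same gene mostly pointed the same way. Of the 38 genes, 20 had more than 1 tested probe set, and in 17 of these all of them lay on 1 side of 0. Tgfb2 is among the 17 also without its probe set that passed the filter through the Cre arrays only. The exceptions were Ltbp3, Eng and Bmpr2. Ltbp3 ranged from -0.35 to 0.54, with its second brightest probe set at 0.68 and 0.39 within the numbers and its brightest at -0.11 and 0.06.

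**Figure D4:**
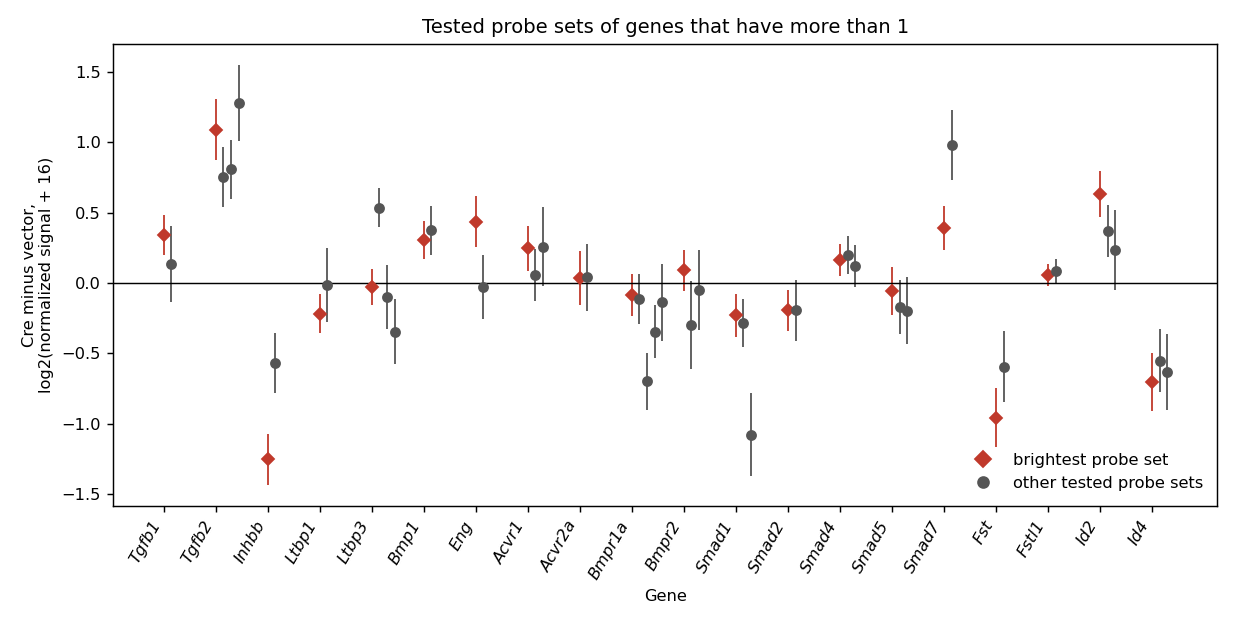
Cre minus vector difference of every tested probe set for the 20 genes that have more than 1, on the log2(normalized signal + 16) scale; diamonds are the brightest probe set of a gene, circles the others, and bars are the SE of the model with the replicate block. All Tgfb2 probe sets lie above 0 and all Inhbb, Fst and Id4 probe sets below 0, while those of Ltbp3 fall on both sides. Of the Tgfb2 probe sets, 1 passed the level filter through its Cre arrays only, so its place is no support.

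Beyond the list, 6 sets of other pathway genes were read: further ligands, receptors, extracellular regulators, intracellular regulators, TGF-beta targets and BMP targets. Of 109 genes, 101 were on the array and 70 were tested, with 42 positive and 28 negative. By genotype alone 0 were called (limma; 9 at an unadjusted p under 0.05). With the block 9 were called higher (12.9%, against 3.25% of all genes) and 1 lower (1.43%, against 0.984%). Of the 9, Acvrl1 was below the filter level on the vector arrays and was tested through its Cre arrays; leaving out it and Hey1, for which the same holds, 8 of 68 were called higher (11.8%). The 10 calls fell to 0 without the level filter (limma; 15 at an unadjusted p under 0.05) and to 1 without the intensity trend. With the filter and the trend on, 18 of the 70 and 2036 of all 11079 genes had an unadjusted p under 0.05 with the block (limma). The 75th percentile filter left 5. With median centring 6 were called with the block, without Msx2, Cd109, Cdkn1a and Ccn2, and with the deposited scaling 11.

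Of the further ligands, 4 were tested (Gdf2, Gdf9, Inha and Lefty1), with 0 calls in either model. By genotype alone, 0 of them had an unadjusted p under 0.05 (limma). Of the 5 further receptors and co-receptors, 2, Acvrl1 and Cd109, rose with the block (40%, against 3.25% of all genes). That share includes Acvrl1, which passed the filter through its Cre arrays only, so it is no support. Acvrl1 encodes ALK1, a type I receptor best known from endothelium. It read 34.3 and 57.7 on the vector arrays and 156 and 277 on the Cre arrays, so every Cre array stood well above both vector arrays. The difference was 1.88 ± 0.38, with 1.77 and 1.99 in the pairs (limma adjusted p = 0.458, and 0.0027 with the block). Both vector values lie under the filter level of 60.6 and are not shown to be above background, so the size of the difference is uncertain, and the gene was tested only through its Cre arrays. The same holds for a dimmer Acvrl1 probe set, at 1.65 and 1.09. Cd109, which encodes a TGF-beta co-receptor on the cell surface, was higher by 0.76 ± 0.30, with 0.82 and 0.70 in the pairs (limma adjusted p = 0.999, and 0.0231 with the block). With median centring and the block, Cd109 was not called (limma adjusted p = 0.0806).

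Among 11 tested extracellular regulators, 1 rose with the block and 0 fell (9.09% higher, against 3.25% of all genes). Tll1, which encodes a tolloid-like protease related to Bmp1, read 534.5 and 361 on the vector arrays and 1142.5 and 853 on the Cre arrays. The groups did not overlap, and the pairs gave 1.07 and 1.21 (1.14 ± 0.30; limma adjusted p = 0.728, and 0.00493 with the block). Thbs1, whose product activates latent TGF-beta, and Twsg1, a BMP-binding protein gene, differed by 0.21 ± 0.25 and -0.07 ± 0.22 and were not called.

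Of 24 intracellular regulators, 1 rose with the block and 0 fell; 4.17% higher is near the 3.25% of all genes. Pmepa1 is a TGF-beta-induced gene whose product dampens Smad signalling. It read 3187 and 3437 on the vector arrays and 5054 and 6115 on the Cre arrays. The groups stood apart, and the difference was 0.75 ± 0.17, with 0.66 and 0.83 in the pairs (limma adjusted p = 0.614, and 0.00454 with the block). Its other 2 probe sets were higher by 0.55 and 0.65. The corepressor genes Ski and Skil and the ubiquitin ligase genes Smurf1 and Smurf2 differed by -0.22, -0.08, -0.10 and -0.04 and were not called.

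Of 17 TGF-beta target genes, 4 rose with the block (23.5%, against 3.25% of all genes) and 0 fell (0.984% of all genes). Tgfbi encodes a TGF-beta-induced matrix protein and read 1076 and 754 on the vector arrays and 2775 and 1227 on the Cre arrays. On this probe set the groups did not overlap and Cre 1 was highest (limma adjusted p = 0.999, and 0.01194 with the block). All 4 tested Tgfbi probe sets were called with the block. The groups overlapped slightly on some of them, as with vector 1 at 1138 and Cre 2 at 1131, or 384 and 378.5. Pdgfb, a growth factor gene, was 2.87-fold higher, by 1.52 ± 0.52, with 1.41 and 1.63 in the pairs (limma adjusted p = 0.999, and 0.00229 with the block). Its dimmer probe set was higher by 0.80 and was not called (limma adjusted p = 0.134 with the block).

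Cdkn1a, the p21 cell cycle inhibitor gene, was higher by 0.58 ± 0.18 (limma adjusted p = 0.917, and 0.032 with the block). Ccn2, the connective tissue growth factor gene, was higher by 0.35 ± 0.17 (limma adjusted p = 0.999, and 0.0351 with the block). With median centring and the block, neither Cdkn1a nor Ccn2 was called (limma adjusted p = 0.153 and 0.206), so the list's share of calls depends on the scaling. Other targets were close to level: Snai1 differed by 0.0103 (negative with median centring and with the deposited scaling), Klf10 by -0.15 and Tsc22d1 by 0.10. The list's median was 0.11 over 17 genes, with 13 positive.

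Acta2 and Tagln on that list are also smooth muscle markers. They differed by 0.11 and 0.06 and were not called. Of 9 smooth muscle and myofibroblast markers, 7 were tested and all 7 were positive, with 2 (Actg2 and Myl9) called higher with the block (limma; 28.6%, against 3.25% of all genes). Tagln was lower within number 2 (-0.0653), and Myh11 and Lmod1 lay below the level filter. The summed signal of the smooth muscle markers ran from 36235 to 42817 on the vector arrays and from 48669 to 50996 on the Cre arrays. For skeletal muscle markers, 3 of 9 were tested (Acta1, Ckm and Tnnt2), all 3 positive and 2 (Acta1 and Tnnt2) called higher with the block (66.7%, against 3.25% of all genes), with sums of 1614 to 3155 on the vector arrays and 6449 to 7747 on the Cre arrays. Tnnt2, the cardiac troponin T gene, made up most of these sums, and the other 8 markers summed to 278.6 and 305.9 on the vector arrays and 558 and 472 on the Cre arrays. Myod1, Myog, Myh3 and Tnnt1, all below the filter, had lower means on the Cre arrays, by -0.105, -0.20, -0.595 and -0.0944. The part of these markers in the differences of the pathway genes was not tested.

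The 9 tested BMP targets split, with 1 that rose and 1 that fell with the block (11.1% each, against 3.25% and 0.984% of all genes). Sox9, the transcription factor gene of cartilage precursors, read 271 and 278 on the vector arrays and 116 and 112 on the Cre arrays. Both groups were tight, and Sox9 was 2.23-fold lower (-1.16 ± 0.24; limma adjusted p = 0.486, and 0.0159 with the block), with a further probe set at -1.66. Msx2, a homeobox gene, was higher by 0.64 and 1.20 in the pairs (limma adjusted p = 0.0425 with the block). With median centring and the block, Msx2 was not called (limma adjusted p = 0.0603). Hey1, a hairy-related repressor gene, was 1.38 ± 0.46 higher, but mostly in number 2 (2.28, against 0.49), and was not called (limma adjusted p = 0.0925 with the block), except under the deposited scaling (0.0301). Its vector arrays, at 68 and 24.9, also averaged below the filter level.

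**Figure D5:**
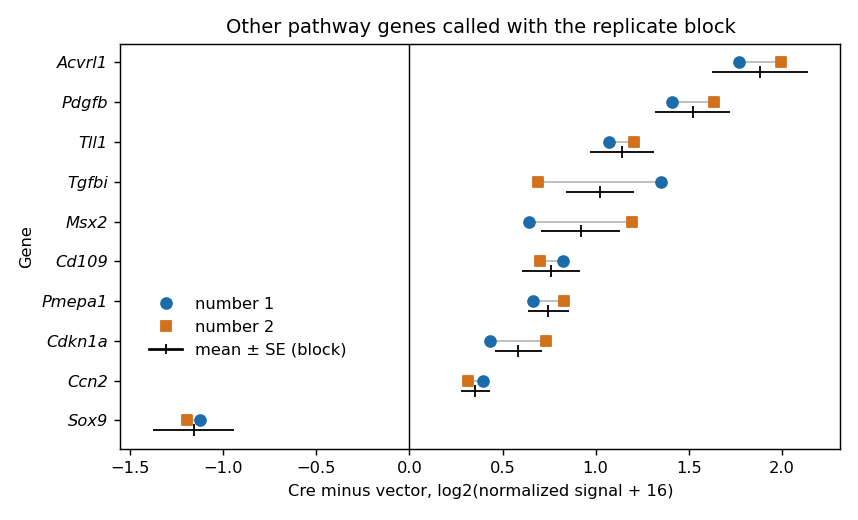
The 10 other pathway genes called with the replicate block, with Cre minus vector differences within number 1 (circles) and number 2 (squares) on the log2(normalized signal + 16) scale; black bars are the mean ± SE of that model. Of these, 9 lie to the right of 0, with Acvrl1, dim on the vector arrays, farthest out, and Sox9 lies to the left with nearly equal values in the pairs.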

How the data were processed

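Total RNA of 4 cell samples was hybridized to Affymetrix mouse arrays. The authors deposited 1 intensity per probe set and array on a linear scale, made with MAS5 per the submitters' processing notes; for MAS5 a version, settings and detection calls were not among the sources used here. The mean after trimming 2% from each end was 500 on every array. Of 45101 probe sets, 64 controls were left out. The rest were quantile normalized and taken as log2(signal + 16). Probe sets with a mean level at or above the 50th percentile were tested, 22519 in all. Of the probe sets kept, 34945 carried 1 symbol, 932 several and 9160 none in the platform annotation, and 34741 matched RefSeq (GRCm38.p6). A gene was represented by its brightest tested probe set.

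limma 3.58.1 under R 4.3.3 fitted each probe set (lmFit, then eBayes with its trend option on). Benjamini-Hochberg adjustment ran over the 22519 probe sets, and calls needed an adjusted p under 0.05. The planned main model held the genotype alone, with 2 residual and 4.1 prior degrees of freedom. The other model added the replicate number as a block, with 1 residual and 9.81 prior degrees of freedom. The labels share the numbers across the groups without saying what they mark. Differences between numbers 1 and 2 correlated at 0.603 between the groups over the tested probe sets. Xist, on its brightest probe set, read 11634 and 10031 on the number 1 arrays and 51.4 and 68.1 on the number 2 arrays, which parts the numbers in both groups alike, and arrays of the same number were taken as pairs; this pairing comes from the data, not from the labels. The scripts were tested on simulated data.

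Values on every array are given for members called in either model, members at least 1.5-fold apart the same way in both numbers, and the member of each role with the smallest p. Of the other pathway genes, those called are named, with some of the next by p. Members and lists were chosen with earlier results of these data known. With 2 arrays in each group, the smallest two-sided p of an exact permutation test is 0.333. Groups that do not overlap reach that value and no lower, and the share of all tested genes without overlap is not given. The alternatives tried were other pseudocounts, level filters, scalings, eBayes settings and probe set choices, the replicate block, and the omission of single arrays.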

Additional observations from a re-analysis of the deposited data

How the results depend on the processing

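With the replicate block, the 4 members and 10 other pathway genes called, against 0 and 0 by genotype alone, depended on the level filter and on the variance model. With the block and no level filter, 0 members were higher and 0 lower (limma; 13 at an unadjusted p under 0.05), and 0 other pathway genes were called (15 unadjusted). With the block and eBayes without the trend, the member counts were again 0 higher and 0 lower (10 unadjusted), and 1 other pathway gene was called. With the filter and the trend on, 2036 of all 11079 genes had an unadjusted p under 0.05 with the block (limma). The shares over all genes without the filter or the trend are not given. With the block and the 75th percentile filter, which removed Tgfb2 and Fst from the test, 0 members were called higher and 5 other pathway genes were called. Inhbb and Grem1 stayed called lower there (limma adjusted p = 0.00809 and 0.0111). Median centring with the block left 6 of the other pathway genes called. The members at least 1.5-fold higher in both replicate numbers were 2 without the level filter and 0 with the 75th percentile filter, and the members at least 1.5-fold lower were 5 with median centring. The members' median log2 difference was -0.0624 with median centring and ran from -0.0672 to 0.19 when 1 array was left out. Those fits unbalance the replicate numbers, and the lone array of a group is assumed to vary like the other group. The cause of these changes was not tested. Leaving out 1 array with the block leaves no residual degrees of freedom, so it was not run. For Tgfb2, Inhbb, Bmp1, Tgfbr3, Smad6, Grem1, Fst and Id2, the 9 alternatives that can move a difference (pseudocounts, scalings, all probe sets of a gene, and each array left out) gave 72 values, of which 0 changed sign. Except for Inhbb, the groups of these genes did not overlap, so another pseudocount or 1 array left out could not turn the sign. The genes were also picked from these data, so the count is no measure of robustness. Without detection calls, the depth of a dim probe set over background is unknown.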
